A study of Mus musculus with 8 samples.

Results

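RLTR types are the long terminal repeats of rodent endogenous retroviruses, the DNA left by old retroviral insertions. A full insertion has the same terminal repeat at both ends and an internal part with the viral genes between them. The terminal repeat holds the promoter and the polyadenylation signal, and most insertions have since recombined to a lone terminal repeat. In mouse embryonic stem cells most such copies are held silent by DNA methylation and by histone H3 lysine 9 methylation through Trim28 and Setdb1, while some families carry binding sites for pluripotency factors and are transcribed.

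The types were taken by name from a table of reads per gene and per repeat type: every entry whose name starts with RLTR, apart from the RLTR10 and RLTRETN entries, which belong to the IAP and ETn elements. This gave 172 of the 1038 repeat types, in 42 numbered name groups. Of these, 9 are internal parts (names ending in -int) and 163 are terminal repeats. A value sums over all copies of a type in the genome. Copy number and length were not used here, so levels are compared between libraries and not between types. Whether reads of near-identical copies were shared or dropped and which strand was counted are not given in the sources used here. Reads that start at a terminal repeat and reads from a copy inside the intron of a transcribed gene cannot be told apart.

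The cells were male mouse embryonic stem cells of 129 background, grown without feeders in serum and LIF, with a conditional knockout of Ythdc1 (Ythdc1 cKO). Ythdc1 encodes a nuclear reader of N6-methyladenosine on RNA. All groups carry the conditional alleles, and each was treated during 4 days before the assay with 4OHT (1 μg/ml), which starts the deletion in lines with an inducible recombinase, or with its solvent DMSO. In 4sUDRB-seq, DRB (100 μM, 3 h) blocks RNA polymerase II soon after initiation, the drug is washed out, and RNA made after release is tagged with 4-thiouridine (4sU, 1 mM) and purified. The 4 groups were 4OHT with 8 min of label, DMSO with 8 min, 4OHT with 0 min and DMSO with 0 min, with 2 libraries each.

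Whether the 2 libraries of a group are separate cultures or clones is not certain, because the titles of the samples and the columns of the table do not match in this: by the titles each cell number was used at a single labelling time, by the columns at both. P-values then measure only the spread between these libraries, which may be technical, and labelling time and cell number may change together. The 0 min libraries had no time to take up label, and what RNA they hold (unlabelled RNA recovered in the purification, for example) was not tested.

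The libraries held 118 M and 134 M reads (M, mega) in 4OHT and 112 M and 93.1 M in DMSO at 8 min. At 0 min they held 58.3 M and 57.6 M in 4OHT and 61.4 M and 46.3 M in DMSO. RLTR types took 390861 to 1450687 of these reads. The libraries differed by a factor common to most entries: on the deposited scale, which divides the reads of each library by 1 number of unstated meaning, the gene size factors at 8 min were 1.31 and 2.10 in 4OHT and 0.489 and 0.764 in DMSO. At 0 min the libraries within each treatment stood apart: repeats of all kinds took 18.9% and 24.6% of reads in 4OHT and 18.7% and 23.8% in DMSO. Ythdc1 itself had deposited values of 2696 and 5168 in 4OHT and 1409 and 2708 in DMSO at 8 min, and 129 and 412 in 4OHT and 133 and 185 in DMSO at 0 min. Relative to the typical gene it was lower in 4OHT at 8 min (log2 fold change -0.51 ± 0.12 SE, adjusted p = 0.00159), while on the deposited scale it had 0.93 ± 0.65 (adjusted p = 0.174). Which exons the deletion removes was not used here. All 15 stem cell factors on the list of markers, Pou5f1, Sox2 and Nanog among them, had reads in every library.

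RLTR types as a whole took between 3.50% and 3.90% of repeat reads in every library. The shares were 3.50% and 3.54% in 4OHT and 3.72% and 3.63% in DMSO at 8 min. At 0 min they were 3.55% and 3.90% in 4OHT and 3.56% and 3.85% in DMSO. The 4OHT libraries lay below the DMSO libraries at 8 min by less than the gap between the 2 libraries of either treatment at 0 min. A fixed set of 10 types, those of highest mean share of RLTR reads over all libraries, was followed in every library. At 8 min it held 35.0% and 34.8% of RLTR reads in 4OHT and 31.9% and 32.4% in DMSO. At 0 min it held 46.5% and 41.9% in 4OHT and 47.2% and 43.1% in DMSO. These 10 types held a smaller part of RLTR reads at 8 min than at 0 min.

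RLTR13G and RLTR17B_Mm had the highest mean values of all 172 types. RLTR13G took 8.09% and 8.14% of RLTR reads in 4OHT at 8 min, against 4.84% and 4.55% in DMSO. At 0 min its share was 10.6% and 8.72% in 4OHT, against 11.6% and 8.55% in DMSO, where the treatments overlapped. RLTR17B_Mm took 6.37% and 6.17% in 4OHT at 8 min, against 5.62% and 6.02% in DMSO, and 7.15% and 7.87% in 4OHT at 0 min, against 6.84% and 8.22% in DMSO. These shares need no scaling between libraries: RLTR13G held a larger part of RLTR reads in 4OHT at 8 min, and RLTR17B_Mm moved little. Next in mean value came RLTR1B-int, RLTR19-int, RLTR31D_MM, RLTR20A4, RLTR40 and RLTR25B.

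The first question was how each type differed between 4OHT and DMSO at 8 min of labelling. The signal of the 0 min libraries was not subtracted, so values at 8 min may also hold RNA of the kind found at 0 min. The 8 min libraries were set to a common scale with size factors over genes, so a change is relative to the typical gene. Of the 166 types that passed the filter on low values (at least 10 in at least 2 libraries), 3 were higher and 14 were lower in 4OHT (adjusted p below 0.05 over all repeat types). Over all 949 repeat types tested, 1.48% were higher and 3.79% lower. The median log2 fold change was -0.09 over RLTR types, -0.01 over repeat types and 0.03 over genes, and 120 of the 166 RLTR types had a negative value. With edgeR on the recovered reads 3 were higher and 19 lower, where 1.48% and 5.37% of all repeat types were. With the library number as a replicate block 3 were higher and 22 lower, where 2.0% and 6.01% of all repeat types were. Both libraries in 4OHT lay below both in DMSO for 83 types, against 29.6% of all repeat types, and above for 24 types, against 23.7%. In the list of all types, RLTR44A had the lowest fold change of the 949 repeat types, RLTR44B was the third, RLTR1B the fourth and RLTR13D3A the sixth.

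**Figure D1:**
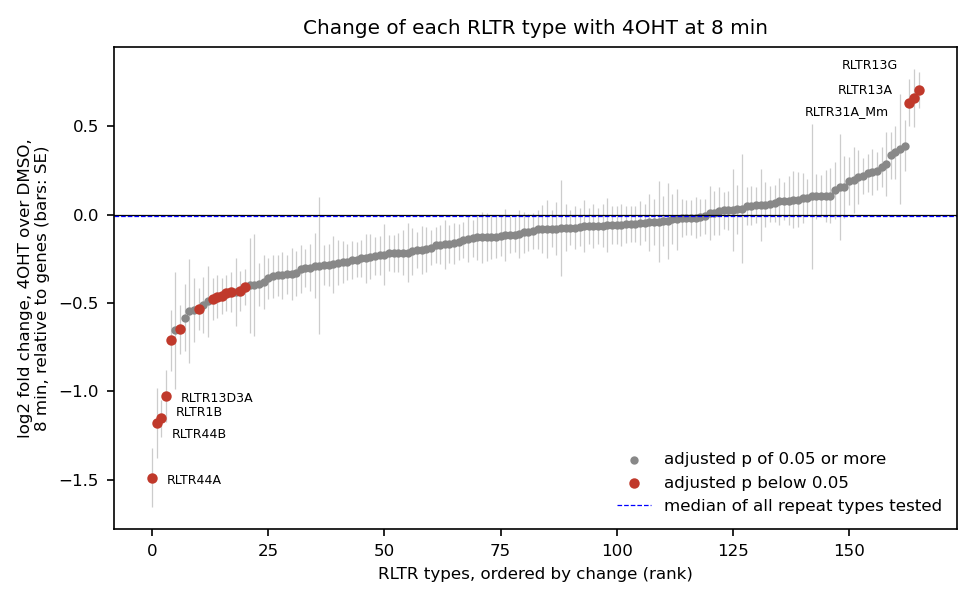
Log2 fold change of 4OHT over DMSO at 8 min relative to genes (y axis) for the 166 RLTR types tested, ordered by rank (x axis), with bars for the SE. Red points are the 3 higher and 14 lower types with adjusted p below 0.05. RLTR44A, RLTR44B, RLTR1B and RLTR13D3A lie apart at the low end, and RLTR13G, RLTR13A and RLTR31A_Mm at the high end.

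The 6 types left out by the filter were RLTR46, RLTR9A4, RLTR46A, RLTR1, RLTR12F and RLTR19D, whose second-highest values lay between 2.83 and 8.41. Just inside it stood RLTR47_MM at 10.4, RLTR46B at 10.6 and RLTR5_Mm at 15.0. Behind a typical type stood a median of 2591 to 3416 reads per library at 8 min and 816 to 1358 at 0 min, so counting error is small there, and the number of libraries limits the precision. Counting error is in any case a lower limit, since PCR reads without molecular identifiers are not independent molecules.

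The RLTR44 group held the types with the lowest and the third-lowest fold change of all repeat types, RLTR44A and RLTR44B. RLTR44A had scaled counts of 60.8 and 53.6 in 4OHT and 191.6 and 137.0 in DMSO. RLTR44B had 41.9 and 29.1 in 4OHT and 75.2 and 86.2 in DMSO. The internal part of the group, RLTR44-int, had 215.4 and 213.6 in 4OHT and 321.4 and 301.7 in DMSO. For all 3 types both 4OHT libraries lay below both DMSO libraries. The log2 fold change was -1.49 ± 0.17 for RLTR44A (adjusted p = 1.62e-06), -1.18 ± 0.20 for RLTR44B (adjusted p = 0.000322) and -0.54 ± 0.12 for RLTR44-int (adjusted p = 0.00599). The other members of the group had values of -0.58 (RLTR44D, adjusted p = 0.0758), -0.34 (RLTR44C) and -0.08 (RLTR44E), so all 6 were negative and 3 passed the test. The neighbouring groups RLTR45 and RLTR46 had 4 tested members, none of which passed.

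RLTR1B, 1 of 8 tested types in the RLTR1 group, fell with its internal part. It had scaled counts of 804 and 792 in 4OHT and 1908 and 1652 in DMSO at 8 min, which gave -1.15 ± 0.10 (adjusted p = 6.69e-08). RLTR1B-int had 2964 and 3193 in 4OHT and 3979 and 4203 in DMSO, or -0.41 ± 0.10 (adjusted p = 0.0149). The 4OHT libraries lay below the DMSO libraries for both parts. RLTR1B took 0.930% and 0.928% of RLTR reads in 4OHT at 8 min, against 2.12% and 1.79% in DMSO, while at 0 min it took 1.13% and 1.06% in 4OHT, against 1.20% and 0.934% in DMSO. The other 6 RLTR1 types did not pass the test.

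The RLTR13 group had members at both ends. RLTR13G had scaled counts of 6999.5 and 6954 in 4OHT and 4354 and 4205 in DMSO, a log2 fold change of 0.71 ± 0.10 (adjusted p = 6.15e-05). RLTR13A had 191.8 and 128.1 in 4OHT and 103.1 and 94.9 in DMSO, or 0.66 ± 0.16 (adjusted p = 0.0149). RLTR13D3A had 96.0 and 110.7 in 4OHT and 242.8 and 183.5 in DMSO, or -1.03 ± 0.15 (adjusted p = 6.15e-05). The libraries of the 2 treatments did not overlap for any of the 3. With all 8 libraries scaled over genes, RLTR13G and RLTR13D3A were not higher at 8 than at 0 min. Their log2 changes with time were -0.07 and -2.16 in 4OHT and -0.78 and -0.99 in DMSO. Whether their 4OHT differences lie in newly made RNA was not tested. RLTR13D6, whose copies are bound by pluripotency factors in embryonic stem cells, had 268.1 and 310.4 in 4OHT and 382.9 and 422.9 in DMSO, or -0.48 ± 0.12 (adjusted p = 0.0149). RLTR13D5, known from its binding by trophoblast factors in trophoblast stem cells, had 215.4 and 169.9 in 4OHT and 179.6 and 195.6 in DMSO, which overlapped. Of 23 RLTR13 types tested, 2 were higher, 2 lower and 19 did not pass with limma, with a median of -0.08. edgeR also called RLTR13C2 lower (-0.37, adjusted p = 0.0422).

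RLTR9 and RLTR17 are the other groups known for binding of pluripotency factors. Of 12 RLTR9 types tested, 11 had a negative log2 fold change and 1 passed the test: RLTR9A3B had scaled counts of 108.0 and 131.0 in 4OHT and 187.3 and 186.9 in DMSO, or -0.65 ± 0.14 (adjusted p = 0.00456). RLTR9E had 699 and 736 in 4OHT and 801 and 773 in DMSO, a value of -0.13 that did not pass. RLTR9B was the only RLTR9 type with a positive value, at 0.33 (adjusted p = 0.177). None of the 4 RLTR17 types passed, and RLTR17 itself stood at -0.22 ± 0.10 (adjusted p = 0.271).

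Genes of stem cell transcription factors moved both ways at 8 min. Of 15 stem cell factors, 2 were higher and 4 lower in 4OHT, with a median log2 fold change of -0.12, while on the deposited scale 14 of the 15 had positive values. Nr0b1 had -1.78 ± 0.18 (adjusted p = 1.27e-07), Nanog -0.98 ± 0.14 (adjusted p = 9.03e-06) and Stat3 0.63 ± 0.13 (adjusted p = 0.000503). Over all 20657 genes tested, 20.1% were higher and 15.5% lower. Whether any of these genes bears on an RLTR type was not tested.

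The gammaretroviral groups RLTR4 and RLTR6 showed no change past the threshold at 8 min. RLTR4_MM-int had scaled counts of 566 and 523 in 4OHT and 516.0 and 516.0 in DMSO, a log2 fold change of 0.08 ± 0.11. RLTR6-int had 797 and 788 in 4OHT and 761 and 757 in DMSO, or 0.06 ± 0.10. In the RLTR6 group, RLTR6B_Mm had the highest value, 0.39 ± 0.15 (adjusted p = 0.151).

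The remaining types that passed belonged to smaller groups. RLTR31A_Mm was higher, with 254.9 and 208.6 in 4OHT and 148.0 and 148.6 in DMSO, or 0.63 ± 0.13 (adjusted p = 0.00433). RLTR41A2 was lower, with 47.5 and 48.4 in 4OHT and 80.9 and 77.5 in DMSO, or -0.71 ± 0.17 (adjusted p = 0.0122). RLTR41 was lower too (-0.43), whereas RLTR41B of the same group had 0.35 and did not pass. RLTR35B_MM, RLTR14_RN, RLTR23 and RLTR48A were lower by similar amounts, with log2 fold changes of -0.46, -0.46, -0.45 and -0.44. In the RLTR30 group all 7 types had negative values and in the RLTR20 group 11 of 16 did. No member of either passed with limma, while edgeR called RLTR30D_MM (adjusted p = 0.0369), RLTR30B_MM (adjusted p = 0.0407) and RLTR20A1 (adjusted p = 0.0413) lower.

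**Figure D2:**
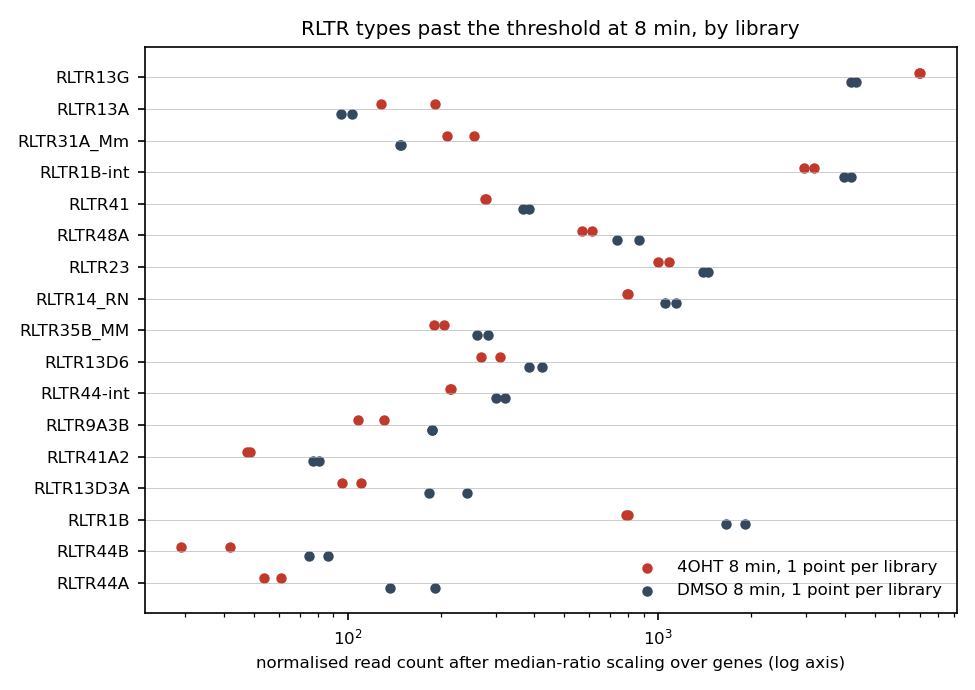
Normalised read counts after median-ratio scaling over genes (x axis, log scale) of the 17 RLTR types with adjusted p below 0.05, with 1 point per library, 4OHT above DMSO within each type. The types run from the most increased (RLTR13G) at the top to the most decreased (RLTR44A) at the bottom, and in none do the treatments overlap.

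**Figure D3:**
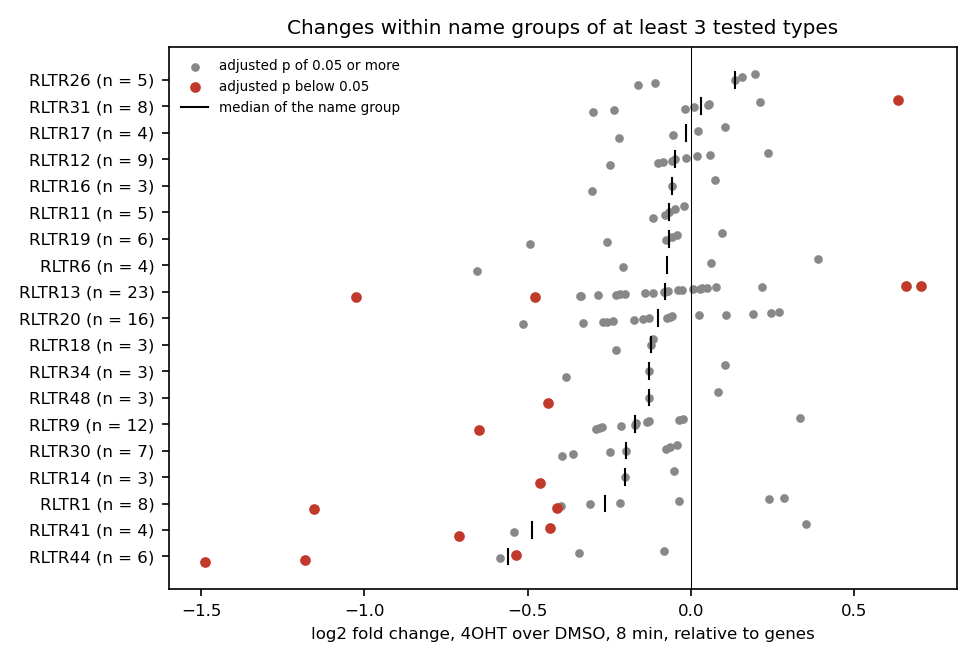
Log2 fold change of 4OHT over DMSO at 8 min relative to genes (x axis) for the name groups with at least 3 tested types (y axis, with the number tested). Red points passed the threshold and black bars are group medians. The 6 RLTR44 types all lie below 0, and the 23 RLTR13 types spread to both sides.

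Leaving out 1 library changed some of these calls. Without the first 4OHT library of 8 min, 1 type was higher and 5 were lower, and RLTR13A, RLTR31A_Mm, RLTR9A3B, RLTR41A2, RLTR13D6, RLTR14_RN, RLTR1B-int, RLTR23, RLTR35B_MM, RLTR41 and RLTR48A no longer passed. Without the second 4OHT library RLTR14_RN, RLTR1B-int, RLTR35B_MM, RLTR41 and RLTR48A did not pass, without the first DMSO library RLTR35B_MM and RLTR41, and without the second RLTR13D6 and RLTR48A. RLTR44A, RLTR44B, RLTR44-int, RLTR1B, RLTR13D3A and RLTR13G passed with each of the 4 libraries left out in turn. When all 8 libraries were scaled and fitted together, no RLTR type passed.

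For 9 types the table has a terminal repeat and its internal part, and their ratio within a library does not depend on any scaling. Lengths differ, so only the change of a ratio can be read. RLTR44A stood at 28.2% and 25.1% of RLTR44-int in 4OHT at 8 min, against 59.6% and 45.4% in DMSO. RLTR1B stood at 27.1% and 24.8% of RLTR1B-int in 4OHT, against 47.9% and 39.3% in DMSO. The 4OHT ratios lay below the DMSO ratios in both pairs. For RLTR44-int the result depends on the terminal repeat chosen, since the group has 5. RLTR44C stood at 73.2% and 68.9% of it in 4OHT, against 63.9% and 60.4% in DMSO, and RLTR44E at 65.7% and 62.0%, against 44.1% and 49.3%, both higher in 4OHT, whereas RLTR44B and RLTR44D lay below as RLTR44A did. RLTR19 also lay higher in 4OHT, with 31.5% and 31.9% of RLTR19-int in 4OHT and 25.2% and 24.5% in DMSO.

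At 8 min both 4OHT ratios lay below both DMSO ratios in 6 of the 9 pairs and above in 2, and RLTR45 overlapped. RLTR44-int is counted here with RLTR44A; with RLTR44C or RLTR44E in its place the pair lay above. Over the 57 repeat types of the table with a matching internal part, 33.3% lay below and 33.3% above. At 0 min the treatments overlapped in all 9 pairs (RLTR44D over RLTR44-int, not among them, lay below), where 10.5% of the 57 lay below and 8.77% above. The RLTR1B ratios at 0 min were 15.1% and 18.0% in 4OHT and 15.8% and 16.3% in DMSO, below all 4 ratios at 8 min.

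**Figure D4:**
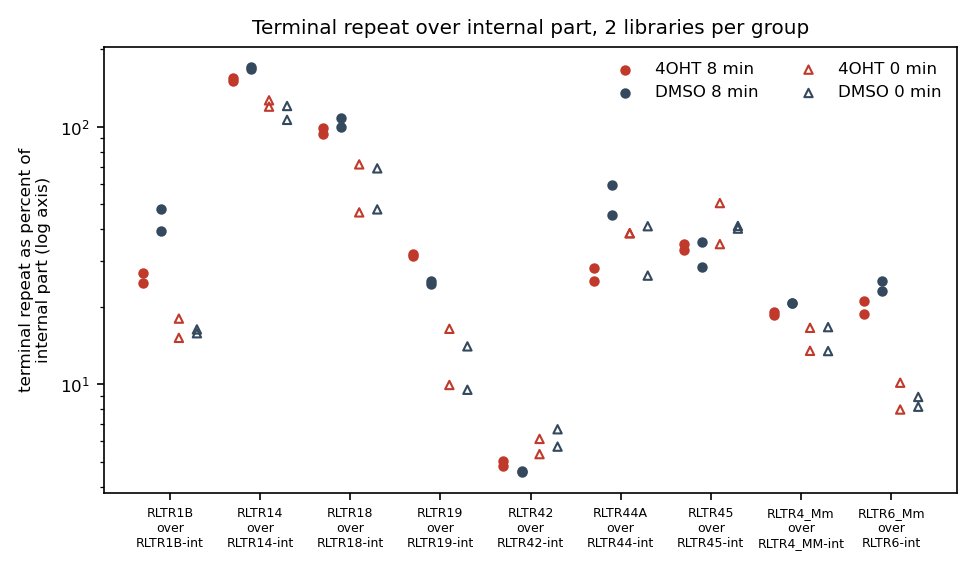
Value of the terminal repeat as a percent of its internal part (y axis, log scale) for 9 RLTR pairs (x axis), 2 libraries per group, circles for 8 min and triangles for 0 min. The 4OHT and DMSO circles are well apart for RLTR1B, RLTR19 and RLTR44A, and the triangles of the 2 treatments overlap for every pair.

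On the deposited scale the 4OHT libraries of 8 min were higher for almost every entry, genes included. The median log2 fold change was 1.34 over RLTR types, 1.42 over repeat types and 1.43 over genes. Both 4OHT libraries lay above both DMSO libraries for 159 of 166 RLTR types, against 97.8% of all repeat types. None of the 166 passed the test (lowest adjusted p = 0.0529, all repeat types 0%), although 110 had an unadjusted p below 0.05 with limma, and edgeR and DESeq2, which rescale the libraries, gave 3 higher each and 19 and 24 lower. With the library number as a replicate block 154 were higher, where 95.7% of all repeat types were and 0% were lower, and with a pseudocount of 5 and no block 96 were. Whether libraries of 1 number are pairs is not settled by the labels. RLTR13G had deposited values of 9179 and 14594 in 4OHT and 2131 and 3211 in DMSO (log2 fold change 2.15 ± 0.76, adjusted p = 0.0529).

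The types that fell relative to genes did not fall on that scale. RLTR44A had deposited values of 79.8 and 112.5 in 4OHT and 93.8 and 104.6 in DMSO, or -0.06 ± 0.60, and it was the only RLTR type below 0. RLTR44B stood at 0.23, RLTR1B at 0.29 and RLTR13D3A at 0.40, each with overlapping libraries, where scaling over genes gave -1.18, -1.15 and -1.03. Their direction is therefore a statement relative to the typical gene. What the deposited scale holds fixed is unknown, and the spike-in entries did not sum to 1 value on it (4323 and 6391 in 4OHT, 1028 and 4194 in DMSO at 8 min). At 0 min the sums lay further apart, at 2520 and 31054 in 4OHT and 3080 and 19419 in DMSO.

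At 0 min no RLTR type passed the test between treatments. The median log2 fold change was 0.31 over RLTR types, 0.31 over repeat types and 0.28 over genes, with 0 types past the threshold in either direction (all repeat types 0%). With limma, 1 type had an unadjusted p below 0.05: RLTR5_Mm, with deposited values of 5.59 and 10.00 in 4OHT and 2.89 and 1.83 in DMSO (adjusted p = 0.921). edgeR and DESeq2 also called none. Both 4OHT libraries lay above both DMSO libraries for 3 types, against 2.85% of all repeat types, and below for 0, against 0.421%.

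The difference of the 4OHT effects between 8 and 0 min was tested directly, and no RLTR type passed (lowest adjusted p = 0.422, all repeat types 0%), with limma giving 4 at an unadjusted p below 0.05 and DESeq2 2 lower. RLTR31A_Mm had the smallest p, with a difference of 2.09 ± 0.85 in log2 units. Its value lay between 1.00 without the first 4OHT library of 0 min and 3.18 without the second. The median difference was 0.98 over RLTR types and 1.15 over genes, and that over RLTR types lay between 0.22 and 1.76 without the same 2 libraries; it was 0.65 or 0.66 without the second 4OHT or the first DMSO library of 8 min, and 0.58 without the second DMSO library of 0 min.

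The second question was how values grew with 8 min of labelling. In 4OHT 160 of 166 RLTR types were higher at 8 min than at 0 min, where 94.2% of all repeat types were, with a median log2 fold change of 2.49. In DMSO 91 were higher, where 43.2% of all repeat types were, with a median of 1.44, and 142 with the library number as a replicate block, where 80.2% of all repeat types were and 0.632% were lower. The medians over genes were 2.49 in 4OHT and 1.25 in DMSO. Both 8 min libraries lay above both 0 min libraries for 164 types in 4OHT, against 95.6% of all repeat types, and for 146 in DMSO, against 82.2%. No RLTR type lay wholly below in either treatment, against 0.105% of repeat types in 4OHT and 1.26% in DMSO. With 1 library left out, the median over RLTR types ranged between 1.69 and 3.19 in 4OHT and between 1.03 and 1.89 in DMSO. The numbers of types higher fell most without the first 0 min library in 4OHT. In DMSO they fell most without the second 8 min or the first 0 min library. The 6 types that did not pass in 4OHT were RLTR13D3A, RLTR3_Mm, RLTR41A2, RLTR6C_Mm, RLTR46B and RLTR19-int, named after their values were seen.

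RLTR13A2 grew most in both treatments. It had deposited values of 1867 and 3191 at 8 min and 30.5 and 109.0 at 0 min in 4OHT, or 5.37 ± 0.61 in log2 units (adjusted p = 8.48e-16). In DMSO it had 592 and 1011 at 8 min and 25.0 and 42.8 at 0 min, or 4.52 ± 0.61 (adjusted p = 9.51e-11). The 8 min libraries lay far above the 0 min libraries in both. RLTR20B4_MM (4.45 in 4OHT, 3.07 in DMSO), RLTR50B (3.95 and 3.38), RLTR30B_MM (3.86 and 3.25), RLTR31_Mur (3.86 and 3.10) and RLTR1C (3.73 and 3.04) also had some of the largest values in both, and RLTR1C no longer passed in DMSO without the first 0 min library. RLTR44B, whose 0 min values were between 3.25 and 14.4, gained 2.51 in 4OHT and 3.05 in DMSO. In DMSO its value lay between 2.54 and 3.56 with 1 library left out, and it no longer passed without the second 8 min library.

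At the other end stood types that gained little or nothing. RLTR13D3A had deposited values of 125.9 and 232.4 at 8 min and 197.4 and 141.2 at 0 min in 4OHT, and 118.8 and 140.1 at 8 min and 196.8 and 81.3 at 0 min in DMSO. Its libraries overlapped between times in both treatments (0.03 in each), and after scaling of all 8 libraries over genes it had -2.16 in 4OHT (adjusted p = 0.0496) and -0.99 in DMSO (adjusted p = 0.243). In 4OHT the adjusted p was 0.0944 with the 4 libraries scaled alone, 0.112 with edgeR and 2.11e-06 with DESeq2. At 0 min RLTR13D3A took 1.18% and 0.316% of RLTR reads in 4OHT and 1.15% and 0.283% in DMSO, so the 2 libraries of each treatment stood apart. RLTR3_Mm was the only type with a negative value in DMSO (-0.46, adjusted p = 0.505), and had 0.65 in 4OHT, which scaling turned to -1.43. RLTR13G gained 2.14 in 4OHT (adjusted p = 0.00603) and 0.25 in DMSO (adjusted p = 0.774), which scaling turned to -0.07 and -0.78; in 4OHT it no longer passed without the second 8 min or the first 0 min library.

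Scaled over genes in all 8 libraries, fewer types stood out. In 4OHT 14 were higher and 1 lower at 8 min, where 4.21% of repeat types were higher and 1.58% lower. In DMSO 20 were higher and 0 lower, where 7.8% were higher and 1.37% lower. RLTR13A2 (3.17 in 4OHT, 3.51 in DMSO), RLTR20B4_MM (2.25 and 2.06), RLTR31_Mur, RLTR30B_MM and RLTR1C passed in both. edgeR, on the same reads, called 0 in 4OHT and 3 in DMSO. The shares of all repeat types that edgeR called with time are not given here, so these counts say nothing about RLTR types in particular. Across the 166 types the log2 changes with time in the 2 treatments, which share no library, had Pearson r = 0.85 and Spearman rho = 0.83, a description across types that share copies, depth and the library numbers.

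**Figure D5:**
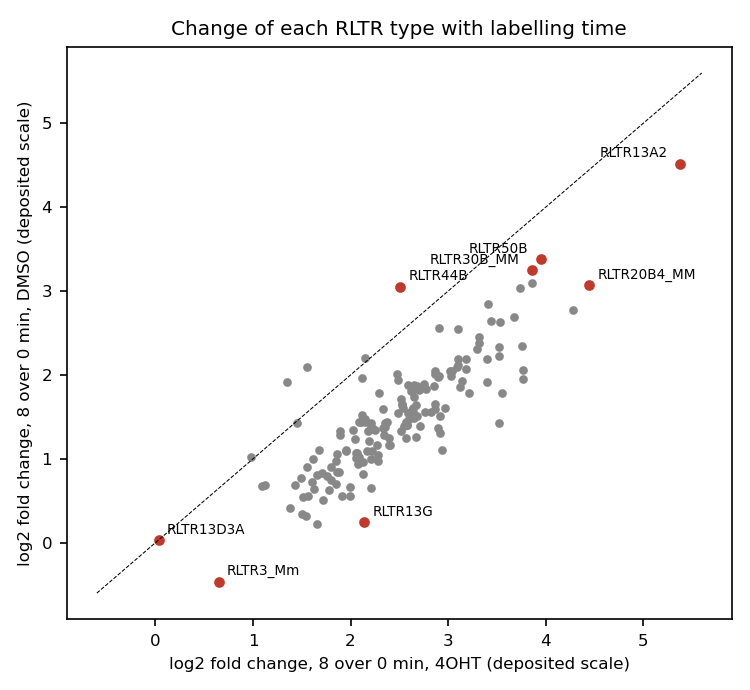
Log2 fold change of 8 over 0 min in 4OHT (x axis) and in DMSO (y axis), both on the deposited scale, for 166 RLTR types, with the dashed line of equal change. RLTR13A2 lies highest in both (5.37 and 4.52), RLTR13D3A near 0 in both, and most types lie below the line.

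Several other readouts moved with 4OHT. The 2-cell-like marker genes, which mark a rare state of stem cell cultures, had summed deposited values of 648 and 916 in 4OHT and 26.0 and 39.7 in DMSO at 8 min, and 33.4 and 180 in 4OHT and 32.3 and 27.4 in DMSO at 0 min. Of 11 tested, 10 were higher at 8 min relative to genes, where 20.1% of all genes were, with Zscan4d at a log2 fold change of 3.42. Of the 16 markers in the table, 0 were at 0 in either 4OHT library of 8 min, against 3 and 5 in DMSO. The MERVL and MT2 repeats of that state had 2 of 8 types higher and none lower, where 1.48% of all repeat types were higher and 3.79% lower. The IAP and ETn terminal repeats had, beside the same shares, none higher and 4 of 21 lower, with a median of -0.05, while on the deposited scale all 21 had positive values. Differences between these sets and RLTR types were not tested.

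Genes of the machinery that silences endogenous retroviruses were counted in the same way at 8 min. Of 31 tested, 5 were higher and 6 lower relative to genes, with a median of -0.10, shares near those over all genes (20.1% higher and 15.5% lower), while on the deposited scale all 31 had positive values. Uhrf1, which brings the maintenance DNA methyltransferase to replicated DNA, had -0.86 ± 0.12 (adjusted p = 8.68e-06). Zfp809, a zinc finger protein that recruits Trim28 to retroviral sequence, had 0.64 ± 0.11 (adjusted p = 0.000126), and Cbx3, a heterochromatin protein, had -0.46 ± 0.11 (adjusted p = 0.00174). The lists that follow stand beside the same 20.1% higher and 15.5% lower over all genes. Of 8 trophoblast markers tested, 1 was higher and 5 lower in 4OHT, with deposited values of the list summing to 203 and 373 in 4OHT and 124 and 216 in DMSO. Of 9 primitive endoderm markers, 3 were higher and 0 lower, with sums of 1047 and 1589.5 in 4OHT and 237 and 361 in DMSO. Of 6 fibroblast markers, 0 were higher and 2 lower, with sums of 186 and 298 in 4OHT and 84.3 and 138 in DMSO. The part of these changes in the RLTR values was not tested.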

How the data were processed

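The authors deposited 1 table of signal values per gene and repeat type. The tools in the submitters' processing notes are STAR 2.7, Bowtie2 and bcl2fastq, with the mm10 build; what each did is not given in the sources used here. Multiplying the deposited signal by 1 number per library (8.095 at the lowest, 29.49 at the highest) gave reads, within 0.01 of a whole read for at least 99.997% of values. Columns without 4OHT in their name were taken as DMSO.

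The main test was limma 3.58.1 in R 4.3.3 on log2(value + 1), two-sided, with trended empirical Bayes, for entries that reached 10 in 2 or more libraries, adjusted by Benjamini-Hochberg at 0.05 over the 949 repeat types (genes: 20657). Fits used all 8 libraries on the deposited scale, or only those of 8 min, scaled by median-ratio size factors over genes. Fold changes are on the log2(value + 1) scale and understate low types. Count tests on the recovered reads were edgeR 4.0.16 (quasi-likelihood) and DESeq2 1.42.0: edgeR called 3 RLTR types higher and 19 lower at 8 min. The fits were also run on simulated data. Those data lacked the factor common to most entries by which the real libraries differed, so they cannot show how the fits handle it. Named types were the 8 of highest mean, up to 8 each way per comparison, and listed groups. Members and lists were chosen with earlier results of these data known. Whether libraries of the same number are pairs is unsettled. On the deposited scale number 2 exceeded number 1 for 167 to 171 of the 172 types in every group. After all 8 libraries were scaled over genes, the difference of number 1 less number 2 was compared between groups. Between 4OHT and DMSO it correlated at 0.06 (8 min) and 0.23 (0 min) over repeat types, and at 0.09 and 0.42 over genes. Between times it correlated at 0.14 in DMSO and 0.02 in 4OHT over genes. Scaling removes a shift common to all entries, so these correlations cannot show whether libraries of the same number share such a shift. The main fits have no block because not every correlation exceeded 0.1, a choice that these values do not settle. RLTR sequences were not used here.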

Additional observations from a re-analysis of the deposited data

How the results depend on the processing

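At 8 min relative to genes, no RLTR type given with a fold change reversed under any alternative run. Where the text gives no share of all repeat types for a setting, a count shows only how the calls move with that setting. Such a count says nothing about RLTR types in particular. The numbers higher and lower were 0 and 0 without the filter and with all 8 libraries scaled, 3 and 24 with DESeq2, and 1 to 3 and 5 to 17 with 1 library left out; the median stayed between -0.13 and -0.08. With the library number as a replicate block 22 types were lower, where 6.01% of all repeat types were. On the deposited scale the block gave 154 higher at 8 min, against 95.7% of all repeat types, and 142 in DMSO with time, against 80.2%. Whether the numbers are pairs is unsettled. On the deposited scale at 8 min, a pseudocount of 5 gave 96 higher, edgeR 3 higher and 19 lower, DESeq2 3 and 24 (both rescale the libraries), and leaving out 1 library 0 to 130, the most without either 4OHT library of 0 min (129 and 130), with medians of 0.98 to 1.65. At 0 min the median ranged between -0.45 and 1.06. For the difference of effects DESeq2 gave 2 lower, and the median ranged between 0.22 and 1.76. With time in DMSO, 31 were higher without the filter, 20 with all 8 libraries scaled, 17 with the 4 libraries scaled alone, 3 with edgeR and 21 with DESeq2 (7 lower); leaving out 1 library gave 6 to 113, with 6 without the second 8 min or the first 0 min library. In 4OHT, 14 were higher and 1 lower with all 8 scaled, 0 higher with the 4 alone, 0 with edgeR and 12 with DESeq2 (9 lower), and 103 to 165 with 1 library left out, the 103 without the first 0 min library. Scaling the 4 libraries alone and size factors over tested genes (3 higher, 19 lower) were chosen after seeing the data. With all gene and repeat reads as the total, RLTR types took 1.09% in 4OHT and 1.15% in DMSO at 8 min, and 0.827% in 4OHT and 0.802% in DMSO at 0 min. 

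Signs turned on the deposited scale only. At 8 min, in the order all 8 scaled, edgeR and DESeq2, RLTR44B had -1.20, -1.21 and -1.21, RLTR1B -1.19, -1.18 and -1.18, and RLTR13D3A -1.06, -1.07 and -1.07. With time, in the order all 8 scaled, 4 scaled, edgeR and DESeq2, RLTR13D3A had -2.16, -2.15, -2.66 and -2.66 in 4OHT and -0.99, -0.97, -1.47 and -1.44 in DMSO, RLTR13G -0.071, -0.050, -0.38 and -0.39 in 4OHT and -0.78, -0.76, -1.05 and -1.03 in DMSO, and RLTR3_Mm -1.43, -1.43, -1.89 and -1.91 in 4OHT. Leaving out 1 library gave at 8 min -0.31 to 0.18 for RLTR44A, -0.18 to 0.64 for RLTR44B, -0.042 to 0.61 for RLTR1B and -0.036 to 0.84 for RLTR13D3A. With time it gave -0.41 to 0.47 for RLTR13D3A and -0.31 to 1.60 for RLTR3_Mm in 4OHT, and -0.60 to 0.66 for RLTR13D3A, -1.09 to 0.17 for RLTR3_Mm and -0.051 to 0.54 for RLTR13G in DMSO. The scaled runs, edgeR and DESeq2 all rescale the libraries, so their signs do not refer to the deposited scale. Why signs turned with 1 library left out was not tested.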
